A study of Sus scrofa with 16 samples.

Results

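The nervous tissue genes GAD1, GAD2, GLRB, CEND1 and OPALIN were followed across 4 tissues of the pig. The members were the rows of the deposited table whose platform gene symbol was one of these 5 names. Each gene had 1 row, so the set was 5 of 175 named genes and 5 of 20736 rows. The RNA came from brain stem, liver, skeletal muscle (longissimus) and uterine endothelium, the name the labels use, of 4 gilts. Gilts are young female pigs, here about 165 days old, and the labels give no treatment, breed or genotype that separates them. Every gilt gave all 4 tissues, and its RNAs were compared on 4 arrays of 2 dyes arranged in a loop, which makes 16 arrays in all. Each tissue of a gilt was labelled once with Cy5 and once with Cy3. The loops differed among the gilts in tissue order or dye direction, so loop and gilt cannot be told apart.

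Fast inhibition in the nervous system uses GABA and glycine, and in the brain stem and spinal cord glycine has a large share of it. Inhibitory neurons make GABA from glutamate with glutamate decarboxylase, of which there are 2 forms, and glycine acts on chloride channels in which a beta subunit ties the receptor to its scaffold at the synapse. Oligodendrocytes, the glial cells that make central myelin, wrap the axons of these and other neurons, and the brain stem is rich in such wrapped tracts. GAD1 encodes the decarboxylase known as GAD67, which supplies most GABA of the cell body. GAD2 encodes GAD65, the form tied to synaptic vesicles. GLRB is the beta subunit of the glycine receptor, CEND1 (also BM88) is a neuronal protein linked to leaving the cell cycle and to differentiation, and OPALIN (also TMEM10) is a membrane glycoprotein of oligodendrocytes.

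Values below are log2 differences of a tissue from the mean of the same gilt's 4 tissues, so 4 values of a gene in a gilt sum to 0 and none is an absolute level. The log base is inferred from the values, and no source states the sign. Each ratio was read as Cy5 over Cy3, which is the likely reading. With the opposite sign, every higher below becomes lower. The gene lists used next were chosen with earlier results of these data known, so they are no blind check. The sign rests on genes outside the set: of 6 named liver genes, 5 (CRP, PROC, UOX, MBL2 and CYP7A1) were higher in liver than in the mean of the others (25.6% of all rows differed there in either direction), and CYP8B1 did not pass. CYP8B1 had means of 0.20 in skeletal muscle and 0.15 in liver. Of 3 named muscle genes, MYOD1 and LMCD1 were higher in skeletal muscle (30.8% of all rows differed in either direction). MYH7, at -0.044 ± 0.095 (SD, n = 4) in muscle, was not. MYH7 was instead higher in liver than in the mean of the others, by 0.25 (limma adjusted p = 0.045). Counted as higher only, the shares of all rows were 14.2% for liver and 15.9% for skeletal muscle. Of 2 genes of endothelium and uterus, CAV1, the caveolar coat protein, was higher in uterine endothelium by 1.45 and the oxytocin receptor OXTR lower, at -0.23 (32.7% of all rows differed). Of all rows, 17% were higher in uterine endothelium and 15.7% lower. OXTR was instead higher in skeletal muscle, by 0.47 (limma adjusted p = 0.00037). Array medians lay between -0.01 and 0.01, and no intensities were used here, so it is unknown which spots were dim and the number of arrays limits the precision.

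Of the 5 genes, 3 differed among the tissues. CEND1 and GAD2 were higher in brain stem, GLRB was lower there, and GAD1 and OPALIN did not pass the test. In limma's F test among the 4 tissues 3 of 5 passed, against 61.2% of all rows, a share near that background. Against the mean of the other 3 tissues, 2 of 5 were higher in brain stem (20.6% of all rows) and 1 of 5 was lower (26.6% of all rows). The median difference of the 5 genes was 0.079, and that of all rows was -0.0096. Without regard to sign, the median over all rows was 0.18. GAD2 (0.34), GLRB (-0.35) and CEND1 (0.29) were larger than that in size, and GAD1 (0.0087) and OPALIN (0.079) smaller. The widest pairwise difference of the 5 genes was that of GLRB, 1.33-fold lower in brain stem than in liver. The run-end centring, described further on, centres each tissue on rows picked by their place in the table. It shifts the difference of brain stem from the mean of the others by -0.14 on average over the gilts. The shift ran from -0.30 in gilt 1 to -0.040 in gilt 3. With this centring 0 of 5 were higher in brain stem by limma (8.78% of all rows) and 1 of 5 was lower (41.0% of all rows).

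**Figure D1:**
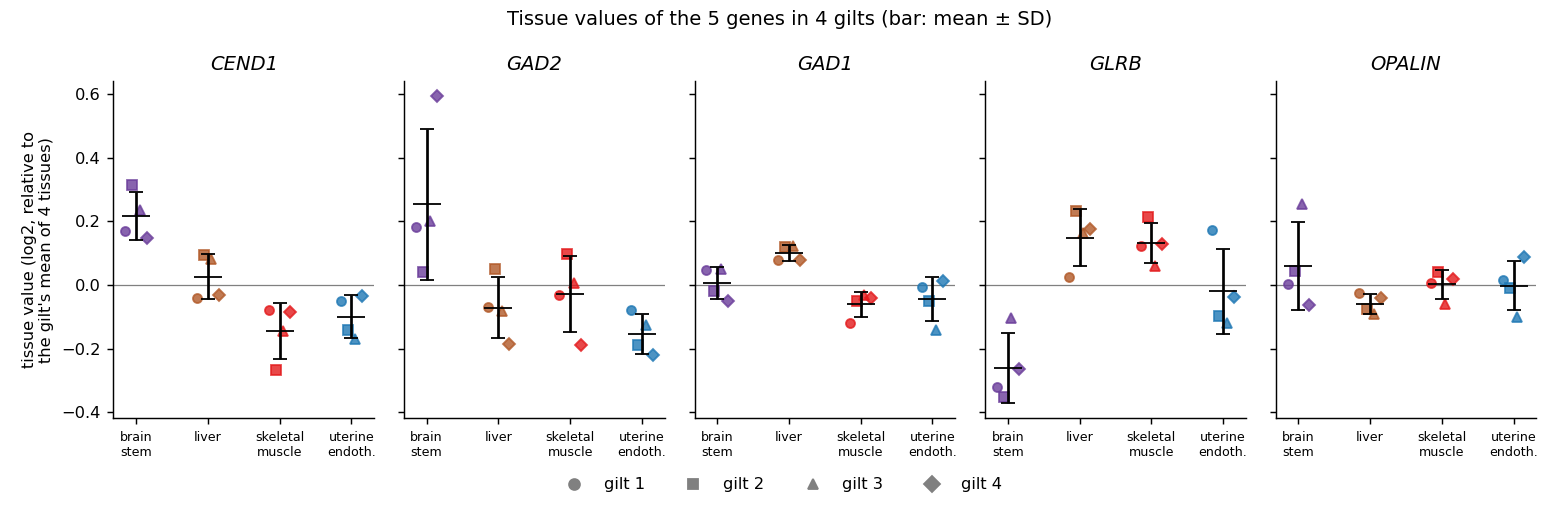
Log2 value of each gene in each tissue relative to the gilt's mean, with 1 point per gilt (n = 4, marked by shape) and bars at the mean ± SD. CEND1 points of brain stem lie above those of the other tissues, and GLRB points of brain stem lie at or near the bottom. GAD1 and OPALIN points stay closer to 0, apart from OPALIN in brain stem of gilt 3 (0.25).

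GAD2, the vesicle-associated decarboxylase, was higher in brain stem, and the difference was by far the widest in gilt 4. In brain stem it stood at 0.18, 0.040, 0.20 and 0.59 in gilts 1 to 4. The other tissues lay lower on average, at -0.070, 0.049, -0.081 and -0.18 in liver and at -0.032, 0.099, 0.0048 and -0.19 in skeletal muscle. Uterine endothelium had -0.079, -0.19, -0.12 and -0.22. Gilt 4 was by far the highest brain stem, and in gilt 2 both liver and muscle stood above brain stem, so brain stem overlapped these 2 tissues but not uterine endothelium. The means were 0.25 ± 0.24 (SD, n = 4 here and below) in brain stem, -0.072 ± 0.096 in liver, -0.029 ± 0.12 in skeletal muscle and -0.15 ± 0.063 in uterine endothelium. In the order brain stem, skeletal muscle, liver, uterine endothelium, no neighbours differed past the threshold.

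Brain stem exceeded the mean of the others for GAD2 by 0.34 ± 0.091 (SE; 95% interval 0.14 to 0.54), or 1.26-fold, with a limma adjusted p of 0.0099. The difference was above 0 in 4 of 4 gilts, at 0.24, 0.053, 0.27 and 0.79. Without gilt 4 it was 0.19 and still passed (limma adjusted p = 0.044), and with the run-end centring it was 0.20 and did not (limma adjusted p = 0.12). Pairwise, brain stem exceeded uterine endothelium by 0.41 (limma adjusted p = 0.013) and liver by 0.33 (limma adjusted p = 0.039). The difference from liver was above 0 in 3 of 4 gilts. The difference from skeletal muscle, 0.28, did not pass (limma adjusted p = 0.064). Brain stem and skeletal muscle shared an array only in gilts 2 and 3, where brain stem minus muscle was -0.15 and 0.050. The call against liver was lost without gilt 1 (0.35), 3 (0.34) or 4 (0.17), that against uterine endothelium without gilt 3 (0.43), and the difference from muscle passed without gilt 2 (0.40), with no gilt block (limma adjusted p = 0.027), with a dye term (0.26) and with the row before subtracted (0.32). The fit with a dye term, here and below, used the array ratios and had no gilt block. In the F test GAD2 passed (limma adjusted p = 0.034), and lost that call without gilt 1 (limma adjusted p = 0.10), 3 (0.14) or 4 (0.070). Centring on the most frequent value also ended the F call (limma adjusted p = 0.074) and the call against liver (0.29; limma adjusted p = 0.067). The run-end centring ended the F call (limma adjusted p = 0.30) and the calls against liver (0.16) and uterine endothelium (0.27). Fewer cells of a type and less RNA per cell cannot be told apart in such tissue extracts.

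GAD1, the decarboxylase of the cell body, did not stand out in brain stem. Its brain stem values were 0.046, -0.018, 0.050 and -0.051, on both sides of the gilt means. Liver was the highest tissue in every gilt, at 0.079, 0.12, 0.12 and 0.080. Skeletal muscle had -0.12, -0.051, -0.033 and -0.042, and uterine endothelium -0.0053, -0.049, -0.14 and 0.014. Liver thus overlapped none of the other tissues, while brain stem overlapped both muscle and uterine endothelium.

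For GAD1 the means ran from liver (0.10 ± 0.024) through brain stem (0.0065 ± 0.050) and uterine endothelium (-0.045 ± 0.069) to skeletal muscle (-0.061 ± 0.039), and no neighbours in that order differed past the threshold. Brain stem minus the mean of the others was 0.0087 (95% interval -0.084 to 0.10; limma adjusted p = 0.88). Its sign turned without gilt 1 (-0.0088) or gilt 3 (-0.011). Liver minus the mean of the others was 0.13 and passed (limma adjusted p = 0.038). Of the pairwise differences only liver minus skeletal muscle passed, at 0.16 ± 0.052 (SE; limma adjusted p = 0.039; above 0 in 4 of 4 gilts). That call was lost under the run-end centring (0.20), and without gilt 1 (0.15), gilt 2 (0.16), gilt 3 (0.16) or gilt 4 (0.17). Brain stem minus liver was -0.094 and did not pass (limma adjusted p = 0.18), but it was -0.26 and passed with the run-end centring (limma adjusted p = 0.025). The F test just missed the threshold (limma adjusted p = 0.060), and passed with no gilt block (limma adjusted p = 0.013), with scaled arrays (limma adjusted p = 0.020) and with a dye term (limma adjusted p = 0.018). Liver minus uterine endothelium, 0.15, missed it as well (limma adjusted p = 0.064) and passed in the same 3 fits (limma adjusted p = 0.016, 0.029 and 0.025). Neither the first nor the last of these 3 fits had a gilt block.

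The 2 decarboxylase genes were set against each other within each gilt. The brain stem difference of GAD2 minus that of GAD1 was 0.18, 0.078, 0.20 and 0.86 in gilts 1 to 4. It was above 0 in 4 of 4 gilts, with gilt 4 again far above the others. The mean was 0.33 ± 0.36 (SD, n = 4), and an exact two-sided sign permutation test gave p = 0.125, the smallest that 4 gilts allow. A higher value for GAD2 than for GAD1 is a difference between contrasts and says nothing of which gene had more RNA.

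GLRB, which anchors glycine receptors at the synapse, was lower in brain stem than in the other tissues. Its brain stem values were -0.32, -0.35, -0.10 and -0.27. Liver had 0.025, 0.23, 0.16 and 0.17, and skeletal muscle 0.12, 0.22, 0.061 and 0.13. Brain stem was thus below liver and muscle in every gilt, with no overlap. Uterine endothelium had 0.17, -0.097, -0.12 and -0.037, and in gilt 3 it lay just below brain stem. The order of means was liver (0.15 ± 0.088), skeletal muscle (0.13 ± 0.063), uterine endothelium (-0.020 ± 0.13) and brain stem (-0.26 ± 0.11). Only the last neighbours in that order, uterine endothelium and brain stem, differed past the threshold.

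Brain stem minus the mean of the others was -0.35 ± 0.068 for GLRB (SE; 95% interval -0.50 to -0.20; limma adjusted p = 0.0015), which is 1.27-fold lower in brain stem. The single gilts gave -0.43, -0.47, -0.14 and -0.35, so 4 of 4 were below 0. Against liver the difference was -0.41 (limma adjusted p = 0.0024), against skeletal muscle -0.39 (limma adjusted p = 0.0032) and against uterine endothelium -0.24 (limma adjusted p = 0.038; 3 of 4 gilts). The last call was lost without gilt 1 (-0.16), 2 (-0.24) or 4 (-0.24) and with scaled arrays (-0.22; limma adjusted p = 0.069), while liver minus uterine endothelium (0.17) passed without gilt 1 (0.28). The contrast with the mean of the others kept its call under every alternative tried, and its direction under all but the turned sign, between -0.49 with the run-end centring and -0.30 with the row before subtracted.

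The place of GLRB in the table was examined as well, since rows that follow a strong row shared a little of its values. Rows with an absolute tissue mean of at least 1 were taken as strong. Over 1614 rows that follow a strong row and are not strong themselves, the slope on the strong row was 0.059. No slope was taken between rows that lie apart, so whether it comes from place was not tested. The row before GLRB, which is unnamed, was a strong row. It had -0.62 ± 0.076 in brain stem, 1.13 ± 0.15 in liver, -0.40 ± 0.20 in skeletal muscle and -0.11 ± 0.21 in uterine endothelium. The row after is the prolactin receptor gene PRLR, with -0.42 ± 0.085 in brain stem, 0.47 ± 0.075 in liver, 0.085 ± 0.11 in skeletal muscle and -0.14 ± 0.046 in uterine endothelium. Both neighbours were lowest in brain stem and highest in liver, as was GLRB. After subtraction of the slope times the row before, brain stem minus the mean of the others was -0.30 for GLRB (limma adjusted p = 0.0048), but the difference from uterine endothelium lost its call at -0.21 (limma adjusted p = 0.071). None of the rows beside the other 4 genes reached a tissue mean of 1.

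**Figure D2:**
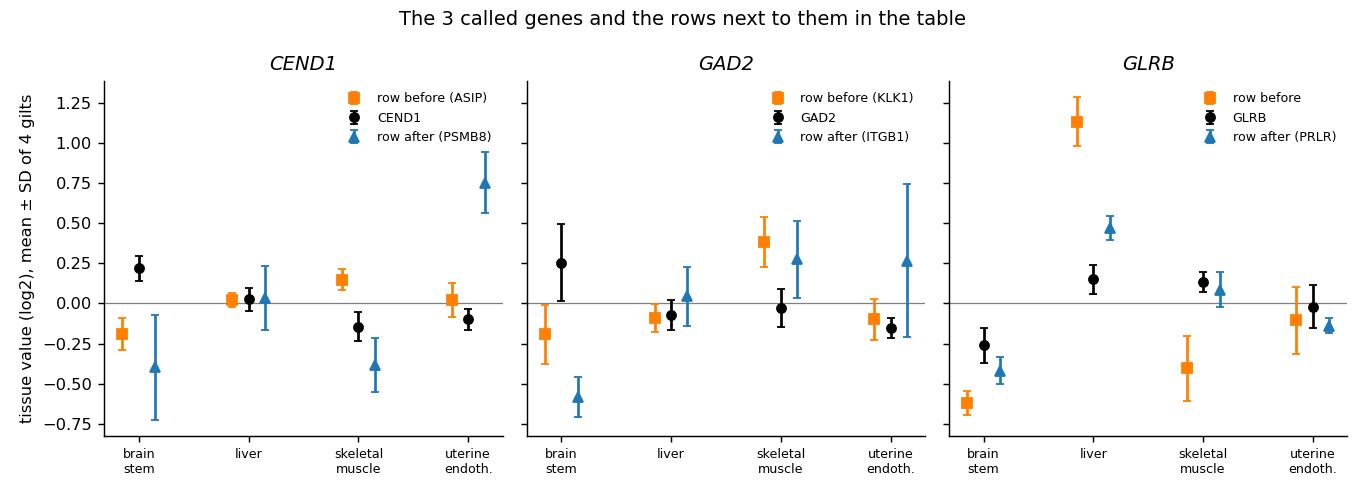
Log2 value in each tissue (mean ± SD of 4 gilts, relative to the gilt's mean) for the row before, the gene's own row and the row after, for CEND1, GAD2 and GLRB. The row before GLRB passes 1 in liver, and the neighbours of CEND1 and GAD2 are below 0 in brain stem where these genes are above 0.

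CEND1, the neuronal differentiation gene, was higher in brain stem in every gilt. Brain stem gave 0.17, 0.32, 0.24 and 0.15. Liver gave -0.040, 0.095, 0.080 and -0.031, skeletal muscle -0.078, -0.27, -0.15 and -0.085, and uterine endothelium -0.051, -0.14, -0.17 and -0.034. The lowest brain stem value lay above the highest value of any other tissue. The means were 0.22 ± 0.075 in brain stem, 0.026 ± 0.071 in liver, -0.14 ± 0.089 in skeletal muscle and -0.099 ± 0.067 in uterine endothelium. In the order brain stem, liver, uterine endothelium, skeletal muscle, only the first neighbours, brain stem and liver, differed past the threshold.

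Brain stem exceeded the mean of the others for CEND1 by 0.29 ± 0.055 (SE; 95% interval 0.17 to 0.41), or 1.22-fold, with a limma adjusted p of 0.0012. The gilts gave 0.22, 0.42, 0.32 and 0.20, all above 0. Differences were 0.36 from skeletal muscle (limma adjusted p = 0.0013), 0.32 from uterine endothelium (limma adjusted p = 0.0030) and 0.19 from liver (limma adjusted p = 0.043). Liver minus skeletal muscle was 0.17 and did not pass (limma adjusted p = 0.088), although it did with no gilt block (limma adjusted p = 0.031) and with a dye term (limma adjusted p = 0.024). Leaving out any 1 gilt kept the contrast with the mean of the others, at 0.25 to 0.32, and ended the call against liver, at 0.19 without gilt 1, 0.18 without gilt 2, 0.20 without gilt 3 and 0.20 without gilt 4. That call against liver was also lost with scaled arrays (limma adjusted p = 0.064), with rows of small SD left out (limma adjusted p = 0.056) and with centring on the most frequent value (0.15; limma adjusted p = 0.089). With the run-end centring the difference from the mean of the others was 0.15 and did not pass (limma adjusted p = 0.16). The F call (limma adjusted p = 0.16) and the calls against liver (0.028), skeletal muscle (0.23) and uterine endothelium (0.18) ended with it too.

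OPALIN, the oligodendrocyte gene, showed no tissue difference that passed a test. Brain stem had 0.0038, 0.043, 0.25 and -0.064, with gilt 3 alone well above 0. Liver had -0.025, -0.076, -0.093 and -0.042, below 0 in every gilt. Skeletal muscle had 0.0073, 0.042, -0.061 and 0.020, and uterine endothelium 0.014, -0.0086, -0.10 and 0.087. Each of the other tissues overlapped brain stem. Brain stem minus the mean of the others was 0.079 ± 0.059 (SE; 95% interval -0.049 to 0.21; limma adjusted p = 0.29), and -0.0079 without gilt 3. The F test gave a limma adjusted p of 0.50. A brain stem excess of up to 0.21 on the log2 scale lies within that interval.

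**Figure D3:**
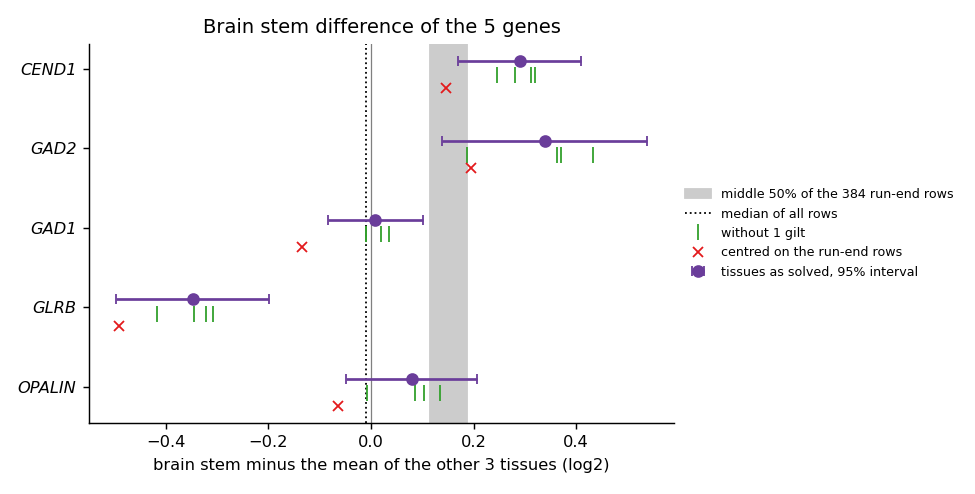
Brain stem minus the mean of the other 3 tissues on the log2 scale for each gene, with its 95% interval from limma (dots and bars), the values without 1 gilt (ticks) and the value with the run-end centring (crosses). The grey band spans the middle 50% of the run-end rows (0.11 to 0.19) and the dotted line is the median of all rows. CEND1 and GAD2 lie above 0, GLRB below 0, and the intervals of GAD1 and OPALIN include 0.

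Pairwise comparisons called 9 of 30 differences in the 5 genes. Over all rows, the share called ran from 24.0% to 41.8% by pair. Brain stem minus liver was called for 3 of 5 genes (37.6% of all rows, either direction), brain stem minus skeletal muscle for 2 of 5 (39.1%) and brain stem minus uterine endothelium for 3 of 5 (41.8%). Among the other tissues, liver minus skeletal muscle was called for 1 of 5 (26.1%). Liver minus uterine endothelium (24.0%) and skeletal muscle minus uterine endothelium (26.4%) were called for 0 of 5 by limma. At an unadjusted p under 0.05, liver minus uterine endothelium had 1 of 5, GAD1, and skeletal muscle minus uterine endothelium 0 of 5. Of the 30 differences, 5 were called without gilt 3 (21.2% over all rows and pairs) and 5 without gilt 4 (25.1%).

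The arrays themselves show how the brain stem sample compared with its partner under each dye. Each gene had 8 arrays with brain stem on them, 4 with it in Cy5 and 4 in Cy3, and the ratios here are turned so that brain stem is on top. CEND1 was above 0 on 8 of 8, between 0.031 and 0.79, and GAD2 on 7 of 8, between -0.15 and 0.80. The exception for GAD2 was the array of gilt 2 against skeletal muscle. GLRB was below 0 on 8 of 8, between -0.64 and -0.072. OPALIN was above 0 on 6 of 8, from -0.23 to 0.40, and GAD1 on 5 of 8, from -0.11 to 0.044.

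The ratios of CEND1 were also set out by dye. With brain stem in Cy5 its ratios were 0.031 to 0.26 (mean 0.13), and with brain stem in Cy3 they were 0.28 to 0.79 (mean 0.46), so these sets of 4 arrays did not overlap. The partner tissues differed between these sets. Its dye effect, the mean ratio around the loops, was -0.12 ± 0.037 (SE), below 0 in 4 of 4 gilts. By limma 0 of 5 genes had a dye effect past the threshold (0.974% of all rows did), and CEND1 alone had an unadjusted p under 0.05 (limma adjusted p = 0.14). With a dye term in a fit of the array ratios, its brain stem difference was 0.31.

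**Figure D4:**
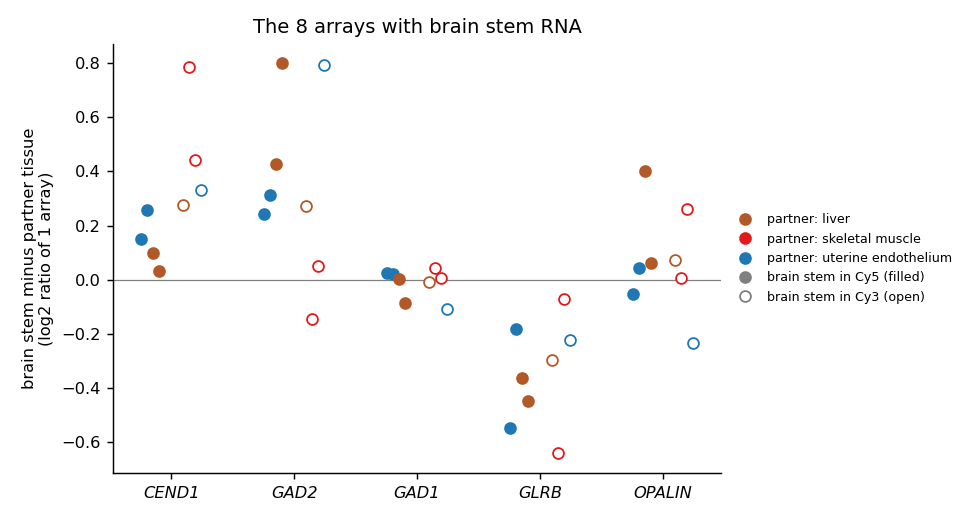
Log2 ratio of brain stem over its partner tissue on each of the 8 arrays that carried brain stem, for each gene, coloured by partner tissue, with filled points for brain stem in Cy5 and open points for brain stem in Cy3. All CEND1 points are above 0 and all GLRB points below 0, and the CEND1 points with brain stem in Cy3 lie above those with brain stem in Cy5.

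How large a small brain stem excess is on these arrays can be read from rows that vary little. The table falls into 48 runs of rows of equal length, and the last 8 rows of each run had a median SD of 0.19 over the arrays, against 0.31 for all rows. What these rows are is not given in the sources used here, and whether they are unchanged between tissues was not tested. Their median was 0.11 in brain stem, -0.055 in liver, -0.021 in skeletal muscle and -0.032 in uterine endothelium. Brain stem minus the mean of the others had a median of 0.14 in them. Among the run-end rows 138 (35.9%, against 20.6% of all rows) were called higher and 3 lower (26.6% of all rows). Of these rows 7 exceeded GAD2, 11 exceeded CEND1, 346 exceeded OPALIN and 367 exceeded GAD1, while every one lay above GLRB. The part of such a shift in the values of GAD2 and CEND1 was not tested.

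The 5 genes also differed in how much they varied at all. The SD of a row over its 16 ratios was 0.34 for GAD2, 0.31 for GLRB and 0.28 for CEND1, at percentiles 54.4, 49.8 and 45.3 of all rows. For OPALIN it was 0.15 (percentile 12.03) and for GAD1 0.14 (percentile 9.46). OPALIN and GAD1 thus lay among the 25% of rows that varied least.

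Likeness between rows was described by Pearson's r over the 16 tissue values, which share arrays and sum to 0 within a gilt, so no p is given. Among the 5 genes, r ranged from -0.56 for GLRB with CEND1 to 0.48 for GAD2 with CEND1, and it was -0.027 for GAD1 with GAD2. Among the 177 other named rows, GAD2 was most like CRSP3 (0.93), PRM1 (0.90) and MMP14 (0.86). CEND1 was most like IFNA1 (0.82), PGLYRP2 (0.82) and DEFB110 (0.81), and GLRB was most like ADIG (0.88), RETN (0.87) and TNFSF8 (0.85). GAD1 was most like GATA6 (0.86), FCN1 (0.81) and HRH4 (0.80), and OPALIN was most like SIGLEC1 (0.84), FAS (0.82) and PAG6 (0.75). Between 13 rows (GLRB) and 201 rows (CEND1) of the 20735 others were at least as alike as the first gene of each.

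Some of these partners had tissue values close to those of the gene they resembled, and others a wider range. DEFB110 had 0.21 in brain stem, -0.042 in liver, -0.14 in skeletal muscle and -0.029 in uterine endothelium, close to CEND1. ADIG had -0.24 in brain stem, 0.25 in liver, 0.064 in skeletal muscle and -0.068 in uterine endothelium, near GLRB. IFNA1 had 0.91 in brain stem, -0.33 in liver, -0.47 in skeletal muscle and -0.12 in uterine endothelium, a wider range than CEND1. CRSP3 had 0.45 in brain stem, -0.072 in liver, -0.089 in skeletal muscle and -0.29 in uterine endothelium. FCN1, the ficolin partner of GAD1, had -0.41 in brain stem, 1.25 in liver, -0.38 in skeletal muscle and -0.47 in uterine endothelium.

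Few other genes of these systems are named on the array, so the pathways could be read only in part. Of 23 genes of GABA and glycine transmission 3 were named, GAD1, GAD2 and GLRB, all members of the set. Of these, 1 was higher in brain stem (20.6% of all rows) and 1 lower (26.6% of all rows), the calls already given above. Of 16 oligodendrocyte and myelin genes 2 were named, OPALIN and QDPR, which recycles tetrahydrobiopterin and is also active in liver. QDPR had -0.79 in brain stem and 1.38 in liver, and its brain stem difference was -1.05 (limma adjusted p = 7.5e-05). None of the 10 astrocyte and microglia genes was named, so 0 of them could be used to check for these cells. The classical myelin genes are likewise not among the named rows, and brain stem could be checked against its label by few neuronal genes alone.

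Of 34 neuronal genes 5 were named, CEND1, POMC, ADCYAP1, CACNB4 and SCAMP1, and 2 of 5 were higher in brain stem (20.6% of all rows). POMC, the precursor of melanocortins and beta-endorphin, was the other one, with 0.36 in brain stem and a difference of 0.48 from the mean of the others (limma adjusted p = 0.00033). The neuropeptide gene ADCYAP1, the calcium channel subunit CACNB4 and the secretory carrier gene SCAMP1 did not pass in brain stem. These 3 were higher in skeletal muscle than in the mean of the others, by 0.80, 0.52 and 0.63 (15.9% of all rows were higher there). The median brain stem difference of the 5 neuronal genes was 0.022, near the -0.0096 of all rows.

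**Figure D5:**
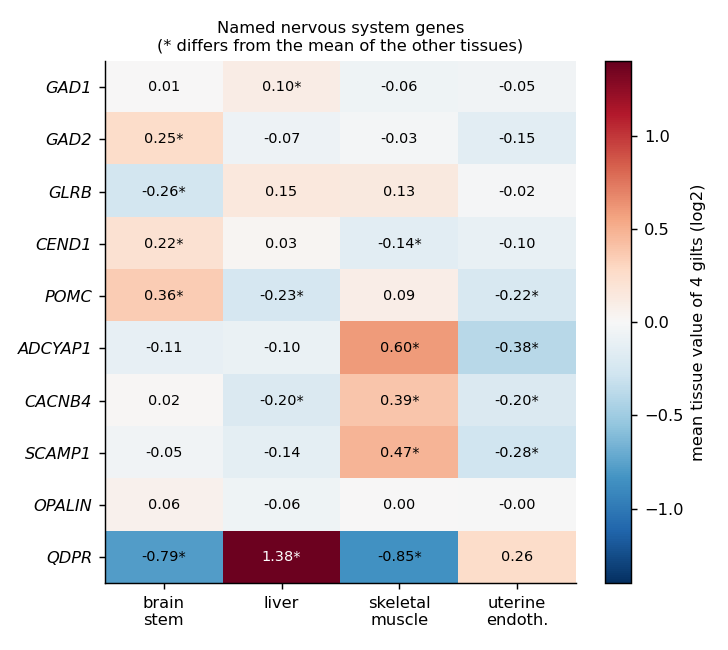
Mean log2 value (4 gilts, relative to the gilt's mean) of each named gene of the GABA and glycine, oligodendrocyte and neuronal lists in each tissue, with the value printed in the cell and an asterisk where it passed the limma test against the other tissues. QDPR in liver is the strongest cell. The brain stem cells of CEND1, GAD2 and POMC are above 0 with an asterisk, and those of GLRB (-0.26) and QDPR (-0.79) are below 0 with an asterisk.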

How the data were processed

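The authors' deposited values are 1 log ratio for each of 20736 rows on each of 16 arrays. The deposited values, whose making by the authors is not stated beyond this, were taken as log2 ratios. The reason was the extreme of 10.42, which as a natural log would mean a 33586-fold ratio (1372-fold as log2). This extreme does not settle the base, and every fold value depends on it. The sources used here do not give scanner, background correction or normalization. Amplification started from a T7 oligo(dT) primer, per the labels' protocols. Least squares turned the 4 ratios of each loop into 4 tissue values of the gilt that sum to 0. limma 3.58.1 (R 4.3.3) was fitted to every row with a fixed gilt block, leaving 9 residual degrees of freedom, and p-values (two-sided) were adjusted over all rows by Benjamini-Hochberg, with a threshold of 0.05. The pairing comes from the labels, which tie each loop to 1 animal. The dye test and the fit with a dye term used arrays as replicates, with no gilt block. Scripts were tested on simulated data. Symbols came from the platform annotation (178 rows, all matched to RefSeq by gene identifier, and 20558 unnamed). The genes named are the 5 members, the 3 most alike named rows of each, and named genes of the lists. Members and lists were chosen with earlier results of these data known. The run-end centring was added after seeing the data. Alternatives changed the block, array scaling, dye term, moderation, row filter, centring, row-before correction, sign and gilts. No sequences or positions are given.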

Additional observations from a re-analysis of the deposited data

Results flagged for a closer look

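In none of 25 sets of 4 gilt values (5 genes, each in 4 tissues and as brain stem minus the mean of the others) did 1 gilt lie far enough from the rest to pass Dixon's limit for 4 values. By chance about 1 in 20 sets would.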

How the results depend on the processing

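Brain stem minus the mean of the other 3 tissues kept its direction and side of the threshold in 59 recomputed values, lost its call in 2 and turned in 12, of which 5 come from the turned sign. That sign gave -0.0087 for GAD1, -0.34 for GAD2, 0.35 for GLRB, -0.29 for CEND1 and -0.079 for OPALIN, with 1 gene higher and 2 lower in brain stem. With the run-end centring GAD2 gave 0.20 and CEND1 0.15, both no longer called, GAD1 -0.13 and OPALIN -0.064. Under it 1 gene passed the F test (54.6% of all rows) and 0 were higher in brain stem (8.78% of all rows). Of the 30 pairwise differences 4 were called (29.1% over all rows and pairs). They were the 3 brain stem differences of GLRB and, as a new call, brain stem minus liver for GAD1 (-0.26). The run-end centring also turned brain stem minus skeletal muscle for GAD1 (-0.061) and OPALIN (-0.071). Brain stem minus uterine endothelium turned for GAD1 (-0.086) and OPALIN (-0.076). For OPALIN, brain stem minus liver (-0.045) and skeletal muscle minus uterine endothelium (-0.0047) turned as well. Centring on the most frequent value turned GAD1 (-0.038), its brain stem minus uterine endothelium (-0.0067) and skeletal muscle minus uterine endothelium for OPALIN (-0.012), and ended the F call of GAD2 (limma adjusted p = 0.074) and the calls of brain stem minus liver for GAD2 (0.29) and CEND1 (0.15). A dye term turned GAD1 (-0.0054) and skeletal muscle minus uterine endothelium for OPALIN (-0.041). Subtracting the row before turned liver minus skeletal muscle for GLRB (-0.074). Why these values moved was not tested, beyond the shift that each centring makes by construction.

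Without 1 gilt, the brain stem difference was -0.011 to 0.034 for GAD1, 0.19 to 0.43 for GAD2 and -0.42 to -0.31 for GLRB. It was 0.25 to 0.32 for CEND1 and -0.0079 to 0.13 for OPALIN. Of the 30 pairwise differences 5 to 7 were called (21.2% to 27.2% over all rows and pairs). Skeletal muscle minus uterine endothelium was -0.057 to 0.017 for GAD1 and -0.012 to 0.028 for OPALIN, liver minus skeletal muscle -0.011 to 0.056 for GLRB, and the dye effect -0.050 to 0.0051 for GLRB. For OPALIN, brain stem minus skeletal muscle was -0.029 to 0.10 and brain stem minus uterine endothelium -0.037 to 0.13.

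In fits where the gilt block was random or absent (no replicate block), 4 genes passed the F test (74.2% of all rows) and 12 of 30 pairwise differences were called (41.5% over all rows and pairs), among them brain stem minus skeletal muscle for GAD2 (0.28; limma adjusted p = 0.027). The 4 values of a gilt sum to 0 by construction, so leaving out the block changed no difference and only left more residual degrees of freedom. Calls could thus be gained but hardly lost. The added calls, here and in the gene paragraphs above, are therefore no independent support. Calls added by the fit with a dye term cannot be ascribed to the dye term alone, since it had no gilt block either. No call of the main fit with the block was lost without the block. GAD1 and OPALIN gave no value where rows of small SD were left out. No intensities were used here, so what signal over background limits is unknown.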
